A study of Bos taurus with 3 samples.

Results

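Argonaute binding sites were listed in 7 genes that encode transcription factors and chromatin regulators of the bovine retina: NRL, CAMTA2, AHR, AHDC1, AFF1, TET2 and CHD7. The members are the sites deposited under these gene names, 9 of 402 listed sites in 7 of 280 named genes. They were selected on the authors' peak calls, since a gene without a peak in all 3 replicates has no listed site, so their presence, heights and classes are described and not tested. Retinas of mixed-strain cattle were dissected, broken into clusters of cells and irradiated with ultraviolet light in 3 exposures of 400 mJ/cm2, which links RNA to the proteins that hold it. Argonaute HITS-CLIP libraries, which sequence the RNA held by Argonaute, were then made. The samples are 3 replicates of 1 group, with no control and no treatment. Separate animals are not mentioned in the labels, and the spread between replicates may be technical.

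Argonaute proteins carry microRNAs, short RNAs that pair with matching stretches of a messenger RNA, most often in its 3' UTR, and lower its translation and stability. Messenger RNAs of transcription regulators are a known class of microRNA targets. Among the genes described here, NRL is the leucine zipper factor that directs photoreceptor precursors to become rods and, with CRX, switches on genes of the rod phototransduction cascade. The others act in many tissues, as sensors of calcium or of small molecules, in transcript elongation, and in the modification and remodelling of chromatin.

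The listed sites held 6421, 5779 and 4114 tags in replicates 1, 2 and 3, sums that cover the list and are not library depths. A tag is a sequenced fragment assigned to a peak, and a site is a peak found in all 3 replicates. The 9 sites held 152, 130 and 102 tags, or 2.37% ± 0.115 of the listed tags (SD, n = 3). As a check of the tissue, 7 of 9 rod markers other than NRL and 3 of 9 cone markers had a site; the rod markers without one were CNGB1 and NR2E3. None of the markers of Müller glia, bipolar, amacrine, horizontal and ganglion cells, pigment epithelium, blood, microglia or vessels had one. Only 1.10% of all protein-coding symbols in the RefSeq gene table had a site. With so low a share, the absence of sites in these short lists is not a result about those cell types. Argonaute-bound RNA in whole retina cannot tell fewer cells of a type from less RNA per cell, and no messenger RNA levels were analysed here. Coordinates are those of the files, which name no genome build.

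NRL had the lowest of the 9 sites by mean tags. It lay in the 5' UTR by the authors' annotation, in the minus-strand table, on chromosome 10 (21330602 to 21330671). Its peaks held 8, 6 and 6 tags in replicates 1 to 3, a mean of 6.67 ± 1.15 (SD, n = 3), with an exact 95% Poisson interval of 4.07 to 10.3 for counting error. Of all listed sites 12.4% were lower. The site was low in every replicate, and its unscaled tags were the least spread of the 9, with a coefficient of variation of 17.3%. Divided by the replicate scale they were not the least spread. The highest scaled value was 1.37 times the lowest, against 1.31 at the taller CAMTA2 and AFF1 sites. It was 1 of only 2 sites in the whole list that the authors placed in a 5' UTR. The other, in the splicing regulator MBNL2, held 55, 30 and 21 tags, and its lowest replicate stood above the highest of NRL. The NRL peaks were short, at 69, 46 and 50 nt, and shared 45 nt. Per 100 nt they held 12.2 ± 0.748 tags (SD, n = 3), which was not the lowest mean of the 9. Their summits lay 25 nt apart, and 83.3% of listed sites had summits closer together. The summit of replicate 3 was the one apart, since those of replicates 1 and 2 (21330655 and 21330657) were nearly the same base.

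CAMTA2, a calmodulin-binding transcription activator known as a cofactor of cardiac growth genes in mice, had the tallest of the 9 sites and a second, lower one. The taller lay in the 3' UTR on the plus strand of chromosome 19 (26629858 to 26630258). It held 35, 40 and 26 tags, a mean of 33.7 ± 7.09 (SD, n = 3), with a Poisson interval of 27.4 to 40.9, and 96% of listed sites were lower. This was also a long site. Its peaks measured 173, 327 and 244 nt, and 98% of listed sites had a shorter mean length. Per 100 nt of peak it held 14.4 ± 5.13 tags (SD, n = 3), close to the median of all sites, 14.8. The second CAMTA2 site lay in the same 3' UTR (26629707 to 26629803) and held 9, 12 and 6 tags, a mean of 9 ± 3 (SD, n = 3). Summits of the pair were 236, 231 and 249 nt apart in the 3 replicates, and 54 nt lay between the facing edges of the sites. The lower one lay on the 5' side in the direction of the plus strand. The taller site held 79.5%, 76.9% and 81.3% of the gene's tags in replicates 1, 2 and 3, so the division of tags between the pair was nearly the same in every replicate, at 79.2% ± 2.18 (SD, n = 3).

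AFF1, a scaffold of the super elongation complex that releases paused RNA polymerase II, was the other gene with a pair of sites, both in the 3' UTR on the plus strand of chromosome 6. The taller (106074206 to 106074334) held 32, 23 and 22 tags, a mean of 25.7 ± 5.51 (SD, n = 3), with a Poisson interval of 20.3 to 32.1, and 90.5% of listed sites were lower. Its summits fell within 2 nt of each other. Peak lengths were 127, 54 and 82 nt, and 64.2% of listed sites had a shorter mean length. The site held 31.5 ± 9.61 tags per 100 nt (SD, n = 3), the most of the 9 sites. The second AFF1 site (106071428 to 106071513) held 16, 8 and 8 tags, a mean of 10.7 ± 4.62 (SD, n = 3). Replicate 1 was high at the second site and the other replicates were equal in unscaled tags. Divided by the replicate scale, the values were 13.2, 7.54 and 10.3 in replicates 1 to 3. The AFF1 summits were 2830, 2832 and 2836 nt apart, with the lower site again on the 5' side. The taller site held 71.4% ± 4.12 of the gene's tags (SD, n = 3). AFF1 overlaps KLHL8, CAMTA2 overlaps LOC100848357 and AHR overlaps a small nucleolar RNA gene in the RefSeq gene table, so the gene behind these sites rests on the authors' annotation. With 2 of 7 genes, or 28.6%, carrying several sites, against 17.9% of all named genes, the small number allows no comparison.

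**Figure D1:**
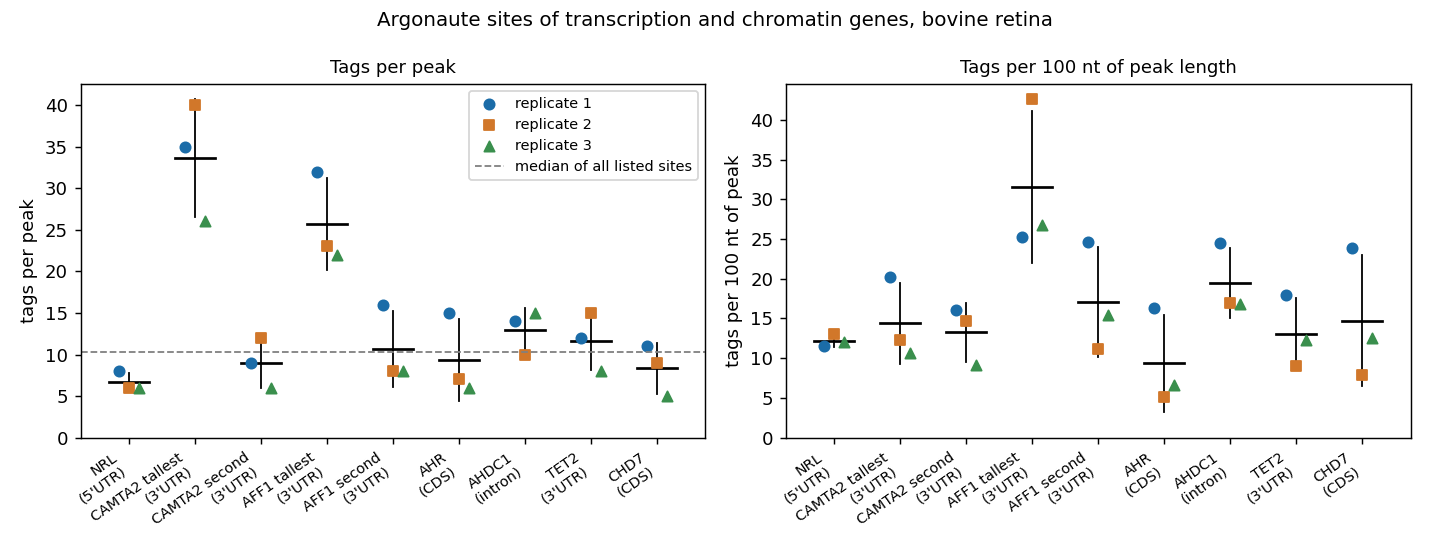
Tags per peak (left, y axis in tags) and tags per 100 nt of peak length (right) at the 9 sites, by replicate; horizontal bars are means and vertical bars SD over 3 replicates, and the dashed line is the median height of all listed sites, 10.3 tags. The tallest CAMTA2 and AFF1 sites stand above the rest by tags, whereas per length the tallest AFF1 site has the highest mean, 31.5 tags per 100 nt, and CAMTA2 lies among the others.

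AHR, the receptor that binds dioxins and other aromatic ligands and then acts as a transcription factor, had a site in coding sequence on the plus strand of chromosome 4 (26710795 to 26710930). It held 15, 7 and 6 tags, a mean of 9.33 ± 4.93 (SD, n = 3). Replicate 1 was high, and the coefficient of variation of the unscaled tags, 52.9%, was the largest of the 9 sites. Of all listed sites 41.5% were lower, and without replicate 1 the value was 17.7%. Peaks of 92, 136 and 91 nt shared 87 nt. Per 100 nt the site held 9.35 ± 6.07 tags (SD, n = 3), the lowest of the 9.

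AHDC1, a protein with AT-hook DNA-binding motifs that is mutated in Xia-Gibbs syndrome in humans, had the only intron site of the set, on the plus strand of chromosome 2 (131206104 to 131206192). It held 14, 10 and 15 tags, a mean of 13 ± 2.65 (SD, n = 3), and 67.2% of listed sites were lower. It was the only one of the 9 sites at which replicate 3 was not the lowest or tied for the lowest, as it was at 71.4% of all listed sites. Its 3 summits fell within 1 nt, at 131206150, 131206151 and 131206151. Intron sites of the list had a median height of 7.83 tags, below every replicate of AHDC1.

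The chromatin regulators had 1 site each. TET2, which oxidises methylated cytosine in DNA, had a 3' UTR site in the minus-strand table on chromosome 6 (21331298 to 21331464), with 12, 15 and 8 tags, a mean of 11.7 ± 3.51 (SD, n = 3). CHD7, an ATP-dependent nucleosome remodeller that is mutated in human CHARGE syndrome, had a coding site on the plus strand of chromosome 14 (26303357 to 26303471). That site held 11, 9 and 5 tags, a mean of 8.33 ± 3.06 (SD, n = 3). TET2 lay just above the median height of all listed sites, 10.3 tags, and CHD7 below it, and 60.2% and 30.8% of sites were lower. Without replicate 2 the TET2 mean was 10 tags and 47.8% of sites were lower. In both genes the peak of replicate 2 was the longest, at 167 nt in TET2 and 115 nt in CHD7, against 65 to 67 nt and 40 to 46 nt in the other replicates.

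By mean tags the 9 sites ran from the taller CAMTA2 site through the taller AFF1 site, AHDC1, TET2, the second AFF1 site, AHR, the second CAMTA2 site and CHD7 to NRL. CAMTA2 was above AFF1 in all 3 replicates at their taller sites, but the ranges overlapped, since the lowest CAMTA2 value was 26 and the highest AFF1 value 32. The single gap in the order lay below AFF1, whose lowest value, 22, exceeded the highest AHDC1 value, 15. From AHDC1 down to NRL the ranges of all neighbours overlapped. Per 100 nt of peak the taller AFF1 site came first with 25.2, 42.6 and 26.8 tags, followed by AHDC1 with 24.6, 16.9 and 16.9. Below AHDC1 the ranges of all neighbours overlapped on this scale too, so the order of the lower sites is not resolved on either scale. The median over the 9 sites was 10.7 tags and 14.4 tags per 100 nt, against 10.3 and 14.8 over all sites.

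The location classes of the set were 5 sites in 3' UTRs, 2 in coding sequence, 1 in an intron and 1 in a 5' UTR. These were 55.6%, 22.2%, 11.1% and 11.1% of the 9, beside 55.5%, 20.1%, 8.46% and 0.498% of all listed sites. The 3' UTR sites belonged to CAMTA2, AFF1 and TET2, and those of the first pair of genes included every member site above 20 tags on average. Both coding sites, in AHR and CHD7, were below the median height. The plus-strand table held 7 of the 9 sites, and NRL and TET2 were in the minus-strand table.

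The sites of the set differed in how their tags were arranged. The deposited fold enrichments are whole multiples of 1 step per strand table and replicate, and the multiple is taken here as the number of tags stacked at the summit, a reading that the file headers do not state. At the AHR site 6, 2 and 2 tags were stacked, of 15, 7 and 6. This share, 34% ± 5.74 (SD, n = 3), was lower than at 182 of the 183 other sites whose mean tags lay within 25% of its own. At the taller AFF1 site 17, 17 and 15 tags were stacked, of 32, 23 and 22. That share, 65.1% ± 10.7 (SD, n = 3), was higher than at 38 of the 40 other sites of like height. The taller CAMTA2 site stacked 17, 11 and 8 of its tags, or 35.6% ± 11.3 (SD, n = 3), and 24 of 30 sites of like height had a larger share. The 2 tallest sites of the set therefore differed in stacking, with a larger share of tags at the summit in AFF1 than in CAMTA2. Their shares did not overlap between replicates, but the gap was narrow. The highest in CAMTA2 was 48.6% and the lowest in AFF1 53.1%, both in replicate 1. The remaining 6 sites had shares from 61.9% to 75.5%, beside a median of 65.1% over all sites. The window of 25% was chosen after these values were seen, and it matched sites by height but not by peak length. Of all listed sites 76.4% had a shorter mean length than the AHR site. For the taller CAMTA2 and AFF1 sites this value was 98% and 64.2%. The part of length in these shares was not tested.

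**Figure D2:**
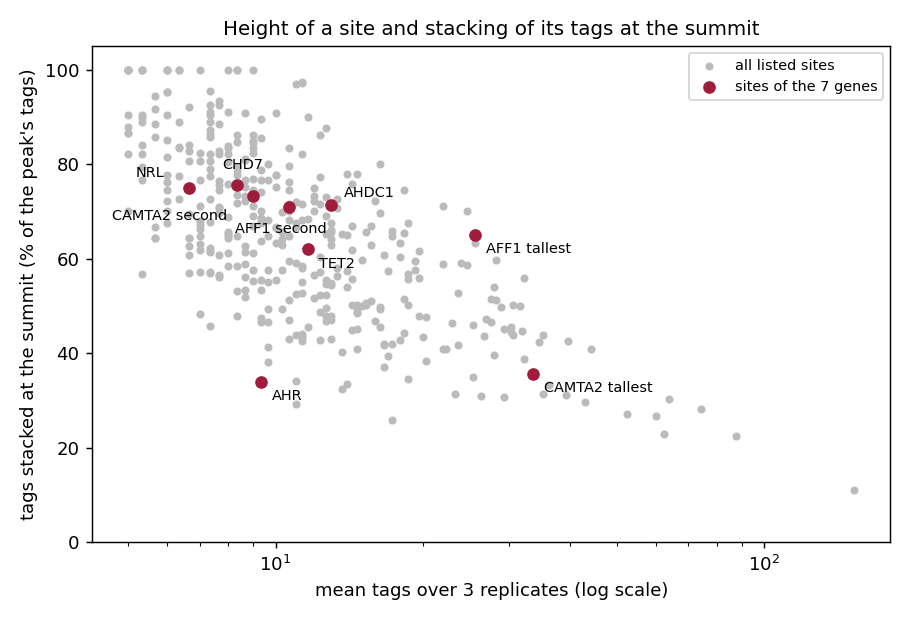
Tags stacked at the summit, as a percentage of the tags of the peak (y axis, mean over 3 replicates), against mean tags (x axis, log scale), for all listed sites (grey) and the 9 sites of the 7 genes (red). The share falls with height over the list; AHR (34%) lies below nearly all sites of its height and the tallest AFF1 site (65.1%) above nearly all of its own.

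At every listed site the peaks of the 3 replicates share at least 17 nt. The listing rule is not stated, so their agreement in position is taken as part of the selection and is described only. The peaks of the 9 sites shared between 32 nt, in CHD7, and 135 nt, in the taller CAMTA2 site, with a median of 49 nt beside 46 nt over all sites. Their summits spread over 1 to 25 nt, with a median of 5 nt beside 9 nt over all sites. AHDC1 and the AFF1 pair were the tightest, at 1, 2 and 4 nt, and NRL and AHR the loosest, at 25 and 18 nt. The lowest peak score of the set, the −log10 of the p-value times 10 per the headers, was 225.24 in replicate 3 of CHD7, and the lowest of the whole list was 200.02.

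**Figure D3:**
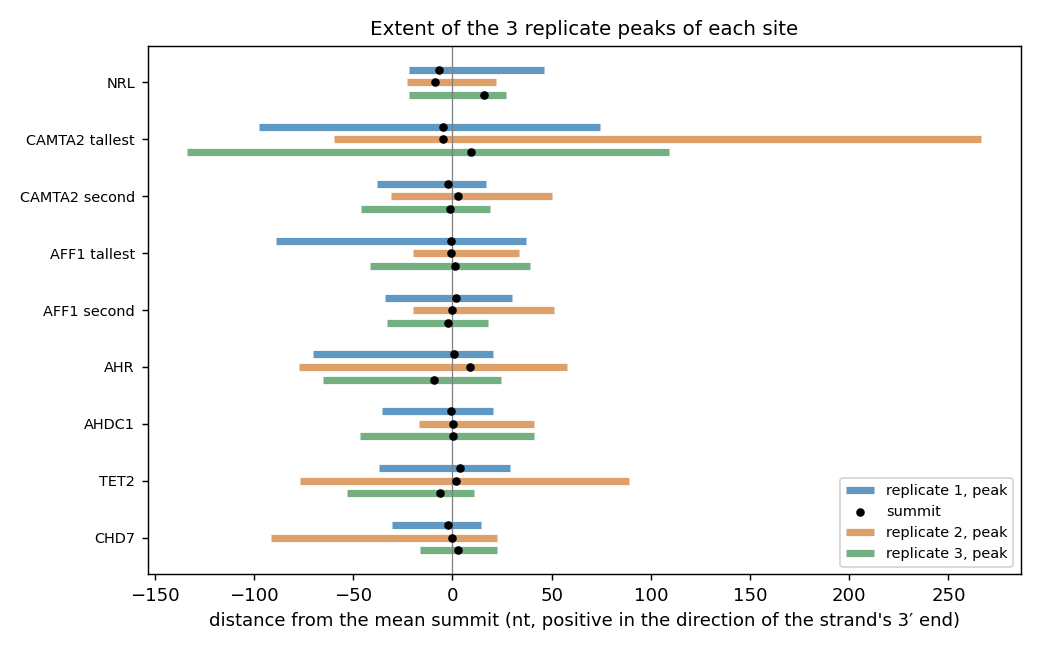
Extent of the peak of each replicate (bars) around the mean summit (x axis, distance in nt, positive towards the 3′ end of the strand), with the summit of each replicate as a black point, for the 9 sites (y axis). The bars of the tallest CAMTA2 site are the longest, 173 to 327 nt, and the AHDC1 and AFF1 summits fall on nearly the same base in the 3 replicates.

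Whether tags varied between replicates beyond counting error was tested for every listed site with an exact multinomial test against the scale of the replicates, with Benjamini-Hochberg adjustment over all 402 sites. The test called 20 sites, or 4.98%, and 0 of the 9 sites described here, with adjusted p from 0.659 (AHDC1) to 0.990 (CHD7). None of the 9 had an unadjusted p under 0.05 in this exact test, beside 59 of all 402 sites (14.7%); with 9 sites, neither 0 is a result about these genes. Divided by the replicate scale, the highest value of a site was 1.31 to 2.06 times its lowest, with the widest ratio in AHDC1 (11.5, 9.42 and 19.4 scaled tags). AHR gave 12.3, 6.60 and 7.76 scaled tags (exact multinomial test, p = 0.338, adjusted p = 0.827). The 9 sites held 20 to 101 tags each over the 3 replicates.

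Profiles closest to these genes were looked for among sites of other named genes, as the distance in log2 tags over the 3 replicates, a description of 3 values. For CAMTA2 the nearest were an intron site of PPM1G, a protein phosphatase, with 35, 36 and 26 tags, and a coding site of PDE6G, the inhibitory subunit of rod phosphodiesterase, with 37, 44 and 28. AFF1 was nearest to a 3' UTR site of ATP13A3 with 38, 22 and 23 tags, and AHR to a coding site of the photoreceptor calcium channel CACNA1F with 14, 7 and 6. The NRL profile was matched most closely by a 3' UTR site of SPIN1, with 8, 7 and 6 tags, and then by another coding site of PDE6G with 8, 6 and 5. CHD7 was nearest to a coding site of ANK2, TET2 to a coding site of MAP1B and AHDC1 to a 3' UTR site of FAM57B.

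Some relatives and partners of the 7 genes were in the list as well. Of 163 other genes of transcription and chromatin in 8 lists, 5 had a site, or 3.07%, beside 1.10% of all protein-coding symbols in the gene table. Each of the 5 had its sites in the 3' UTR and in the minus-strand table, and each was below the median height of all sites. Paralogs were among them. CAMTA1, the other calmodulin-binding transcription activator, had 2 sites like CAMTA2, on chromosome 16 (42806395 to 42806561 and 42807143 to 42807236). The first held 14, 8 and 5 tags and the second 7, 13 and 6, with means of 9 ± 4.58 and 8.67 ± 3.79 (SD, n = 3). Every replicate of the taller CAMTA2 site, 26 tags or more, was above every replicate of the CAMTA1 sites.

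AFF4, the AF4 family member that also builds super elongation complexes, had 5, 6 and 5 tags on chromosome 7 (44085953 to 44086085), below every replicate of the taller AFF1 site, 22 to 32, and of the second, 8 to 16. It was the only gene of 19 in the elongation list with a site. CLOCK, a relative of AHR in the same protein family that drives circadian transcription, was the only one of 18 in the AHR list, with 16, 8 and 5 tags. Its mean was 9.67 ± 5.69 (SD, n = 3). MBD2, a reader of methylated DNA, was the only one of 15 in the DNA methylation list, at 6.67 ± 2.08 tags (SD, n = 3), and TET1 and TET3 had no listed site. SMARCA5, the ATPase of ISWI remodellers, was the only one of 22 in the remodeller list, at 7.33 ± 3.06 tags (SD, n = 3), and no other CHD gene was listed. No site was listed in the 35 histone modifiers and cofactors chosen here or in the 6 other members of the MAF family to which NRL belongs. Only 1.10% of all protein-coding symbols had a site. With so low a share, the counts in these short lists are not a result about their families. These lists do not cover their classes: KAT6B, a histone acetyltransferase outside them, had a 3' UTR site of 9, 13 and 13 tags, and JARID2, a partner of the Polycomb methyltransferase, had one of 6, 7 and 6.

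**Figure D4:**
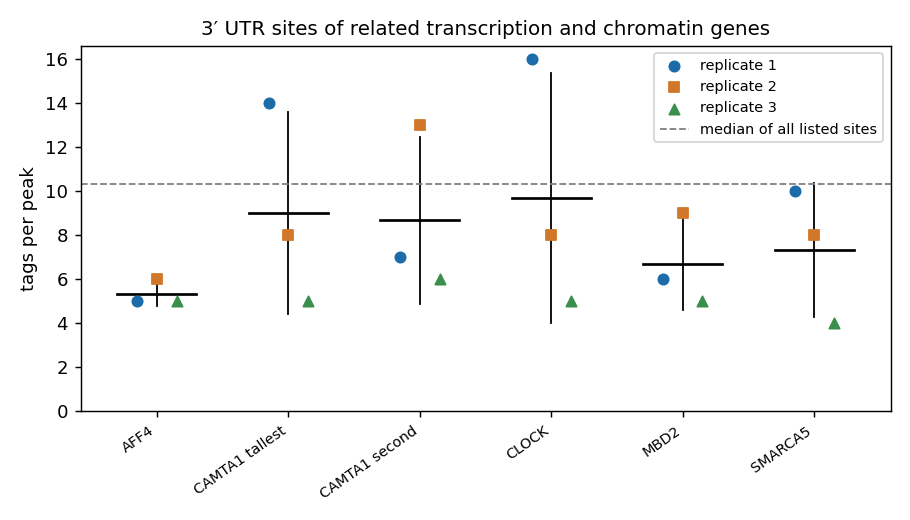
Tags per peak (y axis) by replicate at the 3′ UTR sites of the 5 related genes (x axis); horizontal bars are means, vertical bars SD over 3 replicates, and the dashed line is the median height of all listed sites, 10.3 tags. All means are below the median, from 5.33 in AFF4 to 9.67 in CLOCK, and replicate 3 is the lowest or tied for the lowest at each site.

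NRL was the only retinal transcription factor of those looked at with a site, and as a member it was chosen for having one. None of 34 other retinal transcription factors, among them CRX, NR2E3, OTX2, RORB and PAX6, had a listed site, beside 1.10% of all protein-coding symbols. With so low a share this 0 is not a result about retinal factors, and the 34 do not cover them all. Absence from the list does not show that a transcript was free of Argonaute, because lower peaks are not in it. The rod genes that NRL is known to activate were listed in 11 of 18 cases (61.1%), with 32 sites between them. The heights of their tallest sites ran from 7 tags in PDE6B to 60 in GNAT1 with a median of 14.7, so that each was above the 6.67 tags of NRL on average. Tall sites among them were those of GNAT1 (transducin alpha) with 63, 80 and 37 tags, PDE6G with 34, 54 and 41, PRPH2 (a disc rim protein) with 26, 14 and 10, and GNB1 (transducin beta) with 15, 24 and 10. Every replicate of these 4 sites held more tags than the highest of NRL, 8. This did not hold for every rod gene. The tallest site of PDE6B held 9, 7 and 5 tags, a range that overlapped that of NRL. Several of the other listed rod genes also had a replicate of 8 tags or fewer at their tallest site. Messenger RNA abundance was not measured, and its part in these counts was not tested.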

How the data were processed

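Argonaute HITS-CLIP was measured in 3 replicates of bovine retina. CASAVA 1.8.1 and GSNAP are named, without roles, in the submitters' processing notes; neither notes nor headers name the peak caller, build or listing rule used. Per the file headers, each peak has a count of tags, a −log10 p-value multiplied by 10 and a fold enrichment (a ratio over an undescribed background), besides its start, end, length and summit, which are other values in nt. Location classes and gene names are the authors'.

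The rest was computed here with scipy 1.17.1 and numpy 2.4.6 (pandas 2.3.3, matplotlib 3.10.9, Python 3.11.15). Tags are unscaled unless called scaled; the scale is the median ratio to the geometric mean over sites (1.22, 1.06 and 0.774). All fold enrichments were whole multiples of their step within 0.01. A site spans the outermost ends of its 3 peaks. The exact multinomial test was tested on simulated data. It called 33 of 100 sites with a 2-fold change in 1 replicate and 97 of 100 with a 4-fold change. Of 202 sites without a change it called 3. Most changes of 2-fold would therefore be missed. No molecular identifiers are described, and Poisson intervals cover counting error alone.

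The members and lists were chosen with earlier results of these data known. Named genes are all 7 members, the nearest 2 profiles per member and up to 5 listed genes of each list; some of these are not reported here. MBNL2, KAT6B, JARID2 and the genes named as having no site were chosen after their values were seen. The NCBI RefSeq gene table of ARS-UCD2.0 served for names only, and all 7 members matched. In it AFF1 overlaps KLHL8 and MIR2284AB, CAMTA2 overlaps LOC100848357 and AHR overlaps LOC112446489. These overlaps are of genes, without their strands, in a build that may not be that of the sites. Whether the sites lie in the overlaps, and whether their tags could belong to either gene, was not tested. Alternatives were other scales, peak length as an offset, a minimum of 30 tags, each replicate left out, other measures of height, merging within 1000 nt, a height threshold and synonyms.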

Additional observations from a re-analysis of the deposited data

How the results depend on the processing

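None of the 9 sites was called for spread between replicates in the exact multinomial test under any of the 7 alternatives, in which the lowest adjusted p of the set ran from 0.274 to 1; with the minimum of 30 tags 5 of the 9 were tested, and with the peak length offset the taller AFF1 site had an unadjusted p of 0.0288 (adjusted p = 0.489). Over the whole list that test called 20 sites, 20 with tags scaled by the listed sums, 24 with the fold enrichment steps (13 of them shared with the 20), 2 with expected shares scaled by peak length (1 shared) and 27 among 210 sites with at least 30 tags. Leaving out a replicate gave 6 to 12 (6, 8 and 12 without replicates 1, 2 and 3), with fewer samples. With only sites above the median height, 0 coding and 0 5' UTR sites of the set remained, while 4 of the 5 in 3' UTRs and the 1 in an intron did; each of the 5 lists with 1 listed gene fell to 0, as did their union, from 5. Synonyms changed no list count, and merging within 1000 nt gave 8 sites in place of 9. The share of sites lower than a member moved when tags were counted per nt, from 96% to 45.5% for CAMTA2, from 90.5% to 97.5% for AFF1, from 41.5% to 5.47% for AHR and from 60.2% to 32.3% for TET2. On that scale the share rose from 12.4% to 26.6% for NRL and from 30.8% to 49.5% for CHD7. By the number of tags at the summit it was 89.8% for CAMTA2, 98.3% for AFF1 and 0.498% for AHR. No paired analysis was possible because there is 1 group. The 9 sites held 20 to 101 tags each, which sets the width of their Poisson intervals.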

Other observations

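Other regulators of transcription and chromatin were found by reading the names in the list, so they were chosen after the data were seen, are not a count of their class and carry no test. POU2F1, an octamer-binding transcription factor, had a 3' UTR site with 35, 16 and 15 tags (22 ± 11.3, SD, n = 3), below the taller CAMTA2 and AFF1 sites on average, and 87.3% of listed sites were lower. PBRM1, a subunit of a SWI/SNF remodeller, had one with 22, 10 and 7 tags, and BAZ2A, a subunit of a nucleolar remodeller, a coding site with 14, 5 and 8. Polycomb genes included PCGF5, whose taller 3' UTR site held 30, 8 and 5 tags and whose second held 5, 10 and 9, and PHC2, with an intron site of 10 tags in every replicate.

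Zinc finger genes were among the listed names too. ZFP207 had a 3' UTR site with 17, 9 and 11 tags, ZBTB20 one with 10, 12 and 12, ZFP516 one with 14, 11 and 7, and ZKSCAN1 one with 14, 5 and 3. ZNF292 had a 3' UTR site with 7, 8 and 7 tags, ZNF638 a coding site with 5, 6 and 5, and ZNF276 an intron site with 7, 3 and 6. The means of ZFP207, ZBTB20 and ZFP516, from 10.7 to 12.3 tags, were above the median height of the list, 10.3 tags, and those of the other 4 below it.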
